A study of Mus musculus with 6 samples.

Results

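The genes described are the 3 Runx transcription factors, their shared partner Cbfb, the 3 Eto family corepressors (Runx1t1, Cbfa2t2 and Cbfa2t3) and the zinc finger repressors Gfi1 and Gfi1b. They were chosen by name as 9 genes, and 8 of them had a value among the 22180 genes measured with an unambiguous symbol. Runx2 had no probe listed in the annotation used here. Each of the 8 genes had 1 probe, so no choice between probes entered their values. Expression was measured on 6 arrays of bone marrow LSK cells, a sort gate (no mature lineage markers, Sca-1 and Kit on the surface) that contains stem cells of the blood and their multipotent offspring. All mice were C57Bl6, carried the tamoxifen-inducible Tg(Cdh5-Cre/ERT2) transgene and a Rosa 26 YFP reporter, received tamoxifen on days 1 to 3 after birth, and were examined at postnatal day 27. The sort gave 3 samples of YFP-positive and 3 of YFP-negative LSK cells. Cre was driven by the promoter of Cdh5, the endothelial cadherin gene, so YFP marks cells in which that promoter was active under tamoxifen, and their descendants. The labels do not say whether replicates came from separate or pooled animals. The p-values therefore describe the spread among these samples, some of which may be technical.

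RUNX proteins bind DNA through the Runt domain, and CBFB, which does not bind DNA itself, raises their affinity and stability. RUNX1 is required in the endothelium of the embryo for the emergence of blood stem cells, where GFI1 and GFI1B act downstream of it to silence endothelial genes through the LSD1 demethylase complex. The ETO proteins are corepressors that recruit histone deacetylases. RUNX1T1 is best known as the fusion partner of RUNX1 in acute myeloid leukaemia, and CBFA2T3 is a partner of the TAL1 complex in blood progenitors.

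Runx genes are transcribed from a distal and a proximal promoter, and the distal promoters of the family share a short stretch that a RUNX protein can itself recognise. It is shown here because Runx1 and Runx3, the 2 Runx genes measured, carry it and passed the test. Runx2 carries it as well and had no probe, so the stretch cannot be related to the test result here. RefSeq windows of 300 bases on GRCm38.p6, from 250 bases before to 50 bases after a gene start, were found for 8 of the 9 genes, 12 windows in all. The following 30 bases are printed 5′ to 3′ on the strand of the gene, with capitals marking ACCACA, the reverse complement of the RUNX motif TGTGGT.
Runx1, chr16:92826029-92826058, minus strand: acctcataaacaACCACAgaACCACAagtt
Runx2, chr17:44814587-44814616, minus strand: gcctcacaaacaACCACAgaACCACAagtg
Runx3, chr4:135120499-135120528, plus strand: tctggtccctcaACCACAgaACCACAaggc

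The 3 windows shared the 18 bases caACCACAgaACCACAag, each in 1 copy. The stretch lay 27 to 44 bases after the gene start in Runx1 and 22 to 39 bases after it in Runx2. In Runx3 it lay before the gene start, from position -136 to -119. A pair of ACCACA 2 bases apart, on either strand, was found in 7 of 32851 windows (0.0213%), and 3 of the 7 were those of Runx1, Runx2 and Runx3. At least 1 TGTGGT on either strand was held by 16.8% of windows, and 2 or more by 1.81%. Among the 12 windows of these genes TGTGGT occurred in the 3 shown (2, 3 and 2 copies in Runx1, Runx2 and Runx3) and in no other. The proximal windows of Runx1 and Runx3 held no match to these letters. TGCGGT, another form of the RUNX motif, was held by 6.45% of all windows and by 2 of the 12, those of Runx2 and the upstream start of Cbfa2t3. AAATCA, part of the GFI1 motif, was held by 14% of all windows and by 1 of the 12, that of Gfi1b. There it ended 29 bases before the gene start, and shorter parts of the motif were not counted.
Gfi1b, chr2:28621999-28622028, minus strand, capitals marking AAATCA: taatcagattgaAAATCAgggaggggaaca
These matches describe letters only. Where the array probes lie along each gene is not given in the sources used here, so transcripts of the distal and proximal promoters are not told apart.

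The populations differed widely beyond these genes. The log2 level of Cdh5 was 11.6 ± 0.28 with YFP and 4.55 ± 0.85 without (SD, n = 3 a group), and all 16 endothelial markers rose in YFP-positive cells (median difference 3.98). Kit was above the median of all probes (3.65) on all 6 arrays. Kit, Cd34, Flt3 and Cd48 fell, and Slamf1 and Procr did not pass. Ly6a, which encodes Sca-1, was not analysed here. In leukocyte markers, YFP-positive replicate 3 stood apart from the other YFP-positive arrays. The median of 20 leukocyte markers, taken against the YFP-negative mean, was -1.98 and -2.21 in YFP-positive replicates 1 and 2 and 0.14 in replicate 3. The median of 14 neutrophil markers was 0.29, 0.81 and 2.36 in the same order. In YFP-negative replicates 1, 2 and 3 it was -1.12, -0.42 and 1.81, so replicate 3 was highest in both populations. Fewer cells of a type and less RNA per cell cannot be told apart in these samples.

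All 8 measured genes had lower means in YFP-positive than in YFP-negative LSK cells, and Runx3 and Runx1 passed the test, with 3.51-fold and 2.46-fold lower levels. The other 6 did not pass. Their differences ranged from -1.25 for Gfi1b and -1.16 for Cbfb to -0.15 for Runx1t1 on the log2 scale. With limma and Benjamini-Hochberg adjustment over all genes at 0.05, 0 of the 8 rose and 2 fell, where 1.96% of all genes fell and 2.88% rose. At an unadjusted p under 0.05, 4 of the 8 were lower and 0 higher, where 9.44% of all genes were lower and 7.79% higher. In 7 of the 8, every YFP-positive array lay below every YFP-negative array, which held for 11.9% of all genes. The reverse held for 10.8% of all genes and for none of the 8. The median difference was -1.04 over the 8 genes and -0.01 over all genes. The 8 genes were named with earlier results of these arrays known, so these counts are a description.

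**Figure D1:**
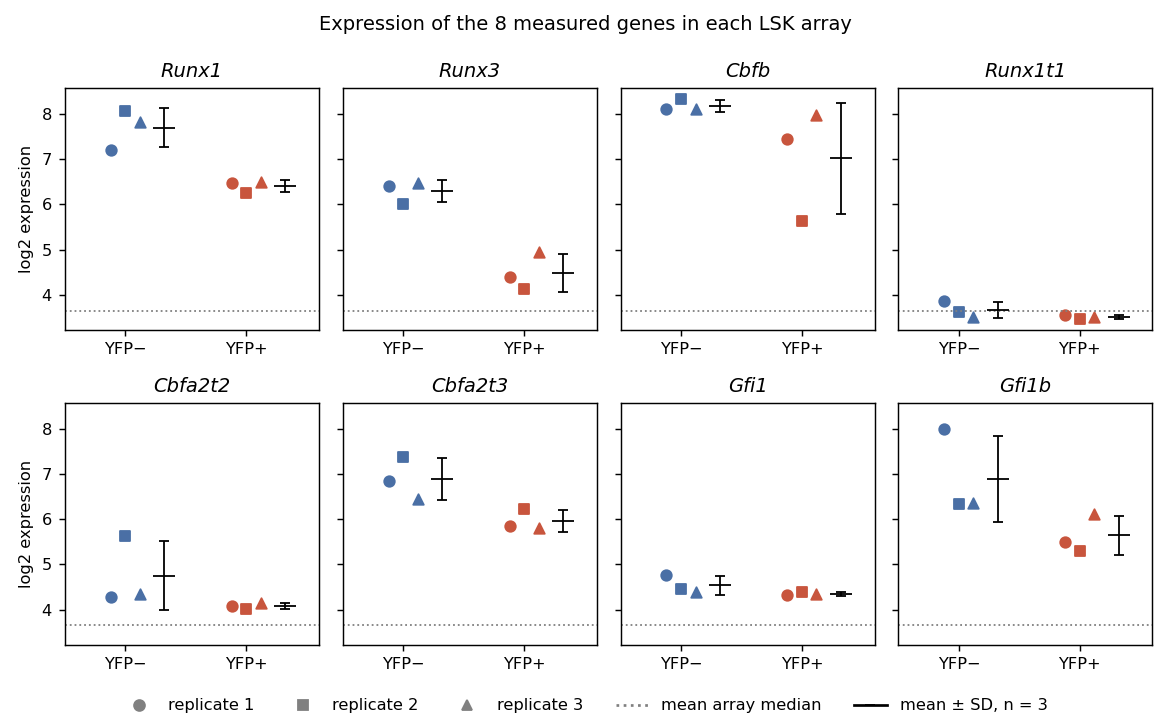
Expression of the 8 measured genes (vertical axis, log2 units) in each YFP-negative (blue) and YFP-positive (red) LSK array, with symbols for the replicate numbers, the mean ± SD of 3 arrays beside them and a dotted line at the mean of the array medians. Runx1 and Runx3 form separate groups of points, Cbfb spreads from 5.64 to 7.97 in YFP-positive cells, and Runx1t1 lies at the dotted line.

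Runx1, the RUNX factor needed for blood emergence, measured 7.21, 8.06 and 7.83 in YFP-negative replicates 1, 2 and 3. In YFP-positive replicates 1, 2 and 3 it measured 6.47, 6.24 and 6.48. The YFP-positive arrays were all lower and lay close together (SD 0.13, against 0.44 in YFP-negative arrays). The difference was -1.30 ± 0.23 (SE, 95% interval -1.87 to -0.73, limma adjusted p = 0.0359). Runx1 remained well above the middle of the arrays in YFP-positive cells, where 86.2% of probes on average had a value no higher, against 92.6% in YFP-negative cells. Its size was nearly the same in each YFP-positive array, at -1.23, -1.45 and -1.21 against the YFP-negative mean. The leukocyte markers had medians of -1.98, -2.21 and 0.14 in the same arrays, and their part in the difference was not tested. Leaving out 1 array at a time ended the call in 5 of 6 fits and kept it without YFP-negative replicate 1 (adjusted p = 0.0171 to 0.108). The replicate block ended the call as well (adjusted p = 0.086).

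Runx3, which acts in lymphoid cells, dendritic cells and neurons, had the largest difference of the 8 genes. It measured 6.41, 6.01 and 6.47 in YFP-negative replicates 1, 2 and 3 and 4.39, 4.13 and 4.94 in YFP-positive replicates 1, 2 and 3. The groups were separated by 1.07 between the nearest arrays. The difference was -1.81 ± 0.24 (SE, 95% interval -2.40 to -1.22, limma adjusted p = 0.015). Runx3 went from a level above 85.1% of probes on average to one above 65.8%. It was still above the median of all probes on all 6 arrays. Its YFP-positive values, 4.13 to 4.94, lay near those of Gfi1 and Cbfa2t2, so the size of its fold is less settled. Against the YFP-negative mean, replicates 1, 2 and 3 differed by -1.90, -2.17 and -1.35. Without YFP-positive replicate 3, where leukocyte and neutrophil markers were highest among YFP-positive arrays, the difference was -2.04 (adjusted p = 0.00749). The call was lost without YFP-positive replicate 1, YFP-negative replicate 1 and YFP-negative replicate 3 (highest adjusted p = 0.0648).

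Cbfb, the partner that all RUNX factors share, measured 8.10, 8.32 and 8.11 in YFP-negative replicates 1, 2 and 3 and 7.44, 5.64 and 7.97 in YFP-positive replicates 1, 2 and 3. The YFP-negative arrays were nearly equal, whereas the YFP-positive arrays spread over 2.33, mostly through replicate 2. The difference was -1.16 ± 0.58 (SE, 95% interval -2.57 to 0.25, limma adjusted p = 0.395), which did not pass. Without YFP-positive replicate 2 it was -0.47 (adjusted p = 0.375). In replicate 3 Cbfb lay 0.13 below the lowest YFP-negative array, while Runx1 in that array lay 0.72 below.

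**Figure D2:**
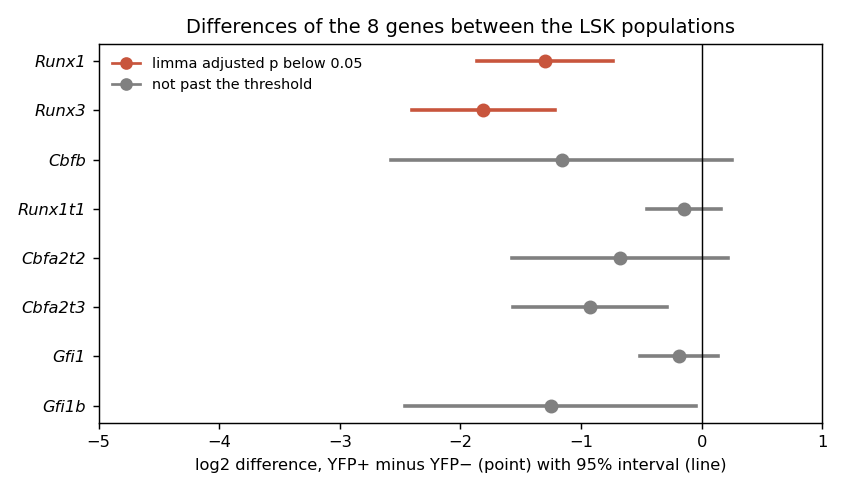
Difference of each gene between YFP-positive and YFP-negative LSK cells (horizontal axis, log2 units) with its 95% interval, 3 arrays a group. The intervals of Runx1 and Runx3 reach -0.73 and -1.22 at their upper ends, and those of Runx1t1 and Gfi1 lie within 1 of 0.

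Of the Eto corepressors, Cbfa2t3 had the widest gap between the populations. It measured 6.85, 7.37 and 6.44 in YFP-negative and 5.84, 6.23 and 5.80 in YFP-positive replicates 1, 2 and 3. The groups did not overlap and were 0.20 apart at their nearest arrays. The difference was -0.93 ± 0.26 (SE, 95% interval -1.56 to -0.29), with an unadjusted p of 0.0117 and a limma adjusted p of 0.128, so it did not pass.

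Cbfa2t2, a corepressor expressed in many tissues, measured 4.28, 5.63 and 4.34 in YFP-negative and 4.07, 4.01 and 4.14 in YFP-positive replicates 1, 2 and 3. YFP-negative replicate 2 was high, and the other 5 arrays lay between 4.01 and 4.34. The difference was -0.68 ± 0.37 (SE, limma adjusted p = 0.443), and without YFP-negative replicate 2 it was -0.24 (adjusted p = 0.479). Runx1t1 measured 3.86, 3.61 and 3.51 in YFP-negative and 3.56, 3.47 and 3.51 in YFP-positive replicates 1, 2 and 3. It was the gene of the 8 whose groups overlapped. These levels lie at the median of all probes (3.65) and cannot be told from background, so the difference of -0.15 ± 0.13 (SE, limma adjusted p = 0.656) is no measure of its change.

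Gfi1b, a repressor of stem cells and of the erythroid and megakaryocyte lineages, measured 7.99, 6.33 and 6.35 in YFP-negative and 5.50, 5.31 and 6.12 in YFP-positive replicates 1, 2 and 3. All YFP-positive arrays were lower, replicate 3 by 0.21 from the nearest YFP-negative array, and YFP-negative replicate 1 was far above the rest. The difference was -1.25 ± 0.50 (SE, 95% interval -2.46 to -0.04, limma adjusted p = 0.273) and did not pass. Without YFP-negative replicate 1 it was -0.70 (adjusted p = 0.333). Of 8 megakaryocyte markers and 7 erythroid markers, 0 of either passed limma's test, with 1 erythroid marker higher with p below 0.05 before adjustment and no other.

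Gfi1, a repressor of stem cells and of the granulocyte and lymphoid lineages, measured 4.77, 4.45 and 4.40 in YFP-negative and 4.32, 4.39 and 4.34 in YFP-positive replicates 1, 2 and 3. The groups did not overlap by a margin of 0.0014, which is far below the spread between replicates. The difference was -0.19 ± 0.13 (SE, 95% interval -0.51 to 0.14, limma adjusted p = 0.581), and -0.07 without YFP-negative replicate 1. Gfi1 was above 67.5% of probes on average in YFP-negative cells, and all 6 arrays fell between 4.32 and 4.77. The neutrophil markers, with medians of 0.29, 0.81 and 2.36 against the YFP-negative mean in YFP-positive replicates 1, 2 and 3, were not tested for a part in these values.

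Whether paralogs differed in their response was tested on the difference between their log2 values within each array, compared between the populations by an exact two-sided permutation test over 20 splits. The smallest p this design allows is 0.1. Of the 7 planned pairs, the 5 without Runx2 could be tested. The log2 difference of Runx1 lay 0.51 above that of Runx3, with overlapping arrays (exact p = 0.2, adjusted over 5 pairs 0.333). The difference of Gfi1 lay 1.06 above that of Gfi1b, without overlap between the populations (exact p = 0.1, adjusted 0.25). Without YFP-negative replicate 1, where Gfi1b was highest, this contrast was 0.63. The difference of Cbfa2t3 departed from that of Cbfa2t2 by -0.25 (exact p = 0.6). The contrasts of Cbfa2t3 and Cbfa2t2 with Runx1t1, -0.78 (exact p = 0.1) and -0.53 (exact p = 0.4), compare no responses, since Runx1t1 cannot be told from background. None of the 5 could pass a threshold of 0.05.

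Which replicate was lowest or highest varied between genes. YFP-positive replicate 2 held the lowest YFP-positive value of 6 genes, all but Cbfa2t3 and Gfi1, and replicate 3 the highest of 5, namely Runx1, Runx3, Cbfb, Cbfa2t2 and Gfi1b. Among YFP-negative arrays, replicate 2 was highest for Runx1, Cbfb, Cbfa2t2 and Cbfa2t3, and replicate 1 for Runx1t1, Gfi1 and Gfi1b. Every YFP-positive array lay below the YFP-negative mean for all 8 genes, but only slightly for Runx1t1 (-0.10 to -0.19) and Gfi1 (-0.14 to -0.22). The share of all genes for which this held was not counted, so it is no result about the 8.

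**Figure D3:**
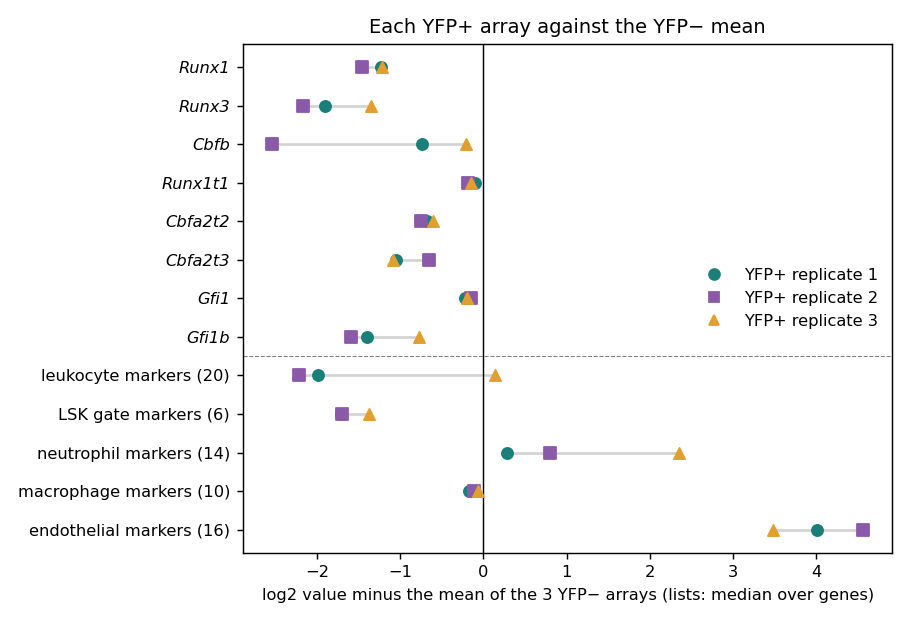
Each YFP-positive array minus the mean of the 3 YFP-negative arrays (horizontal axis, log2 units), for the 8 genes and, below the dashed line, for the median of 5 marker lists with the number of measured genes in brackets. The Runx1 points lie between -1.45 and -1.21, whereas the leukocyte medians spread from -2.21 to 0.14 and the endothelial medians lie between 3.48 and 4.56.

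Over the whole leukocyte list, 3 of 20 genes fell and 0 rose (7 lower and 0 higher with p below 0.05 before adjustment, limma), with mean levels of 6.002 to 7.97 in YFP-positive and 8.08 to 8.17 in YFP-negative arrays. The endothelial list averaged 8.91 to 9.62 in YFP-positive and 4.55 to 5.21 in YFP-negative arrays. Their part in the differences of Runx1, Runx3, Cbfb and Gfi1b was not tested. Macrophage markers, 0 of 10 past the test in limma (0 with p below 0.05 before adjustment), averaged 3.78 to 4.01 in YFP-positive and 3.75 to 4.11 in YFP-negative arrays. Neutrophil markers, 0 of 14 past the test (0 higher and 2 lower with p below 0.05 before adjustment), averaged 7.86 to 9.85 and 6.92 to 9.66. For T and NK cells, in which Runx3 is well known, 0 of 7 markers passed limma's test (1 higher and 1 lower with p below 0.05 before adjustment). The list averaged 3.69 to 3.81 and 3.92 to 4.08, near the median of all probes. The lower marker, Nkg7, lay far above that average. It measured 8.13, 8.27 and 8.22 in YFP-negative and 4.79, 5.98 and 7.25 in YFP-positive replicates 1, 2 and 3 (limma adjusted p = 0.109). The higher marker, Cd3e, had means of 2.80 in YFP-negative and 3.21 in YFP-positive arrays. Both lay below the median of all probes (3.65), so its rise is not settled. For B cells, 1 of 6 markers fell, with averages of 3.15 to 3.37 and 3.54 to 3.74. Mast cell markers, 0 of 7 past limma's test (0 with p below 0.05 before adjustment), averaged 3.42 to 3.72 and 3.79 to 4.24. Osteoblast markers, the lineage that needs Runx2, averaged 3.78 to 4.37 and 3.73 to 3.84, and stromal markers 3.79 to 4.54 and 3.53 to 3.64. Of 8 osteoblast and 6 stromal markers 0 passed limma's test, with 0 and 3 higher and 1 and 1 lower with p below 0.05 before adjustment.

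Of 13 transcription factors that bind beside RUNX1 on blood enhancers, 1 rose and 1 fell, with a median of -0.21. Ets1, an ETS factor that binds DNA cooperatively with RUNX1, measured 6.63, 5.70 and 6.14 in YFP-negative and 9.16, 9.33 and 8.66 in YFP-positive replicates 1, 2 and 3. It rose 7.41-fold (2.89 ± 0.29, SE, limma adjusted p = 0.00513), opposite to Runx1. Myb, a factor of blood progenitors, measured 9.87, 10.1 and 9.91 against 6.05, 6.37 and 7.87 and fell 9.19-fold (adjusted p = 0.0194). This fold is that of its brightest probe, with a log2 difference of -3.20. The mean of its probes gave -2.68 (limma adjusted p = 0.0309). Leaving out 1 array at a time ended the call of Myb in 5 of 6 fits and kept it without YFP-positive replicate 3 (highest adjusted p = 0.0791). Of the 7 core factors that act with RUNX1 in blood stem cells, Erg, Fli1, Tal1, Lyl1, Lmo2, Gata2 and Ldb1, 0 passed limma's test, with Erg higher at an unadjusted p of 0.0318. Fli1 differed by 0.24 (95% interval -0.14 to 0.62). Spi1, an ETS factor of myeloid cells and a RUNX1 target, measured 5.40, 4.83 and 8.14 in YFP-positive against 7.05, 7.61 and 7.98 in YFP-negative arrays. Without YFP-positive replicate 3 it fell as well, by 2.43 (adjusted p = 0.0205), and 2 factors were then lower.

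Of 19 measured co-regulators of RUNX and ETO proteins, 1 rose and 0 fell (3 higher and 6 lower with p below 0.05 before adjustment, limma), with a median of -0.30. Wwtr1, which encodes the YAP-related coactivator TAZ, measured 4.44, 3.99 and 4.27 in YFP-negative and 8.58, 7.26 and 7.45 in YFP-positive replicates 1, 2 and 3. It rose 11.5-fold (3.52 ± 0.36, SE, limma adjusted p = 0.00599). Its YFP-negative levels were low, near those of Gfi1 and Cbfa2t2, so the size of this fold is less settled. The deacetylase genes that serve ETO corepressors did not pass. Hdac1 and Hdac2 differed by -0.75 and -0.61 (adjusted p = 0.137 and 0.135), and Hdac3 by 1.29 (adjusted p = 0.178), which passed with the replicate block (adjusted p = 0.0362). Tle3, a Groucho corepressor, fell without YFP-positive replicate 3 (adjusted p = 0.0273). Nkg7, Cd3e, Spi1, Tle3, Hdac1, Hdac2, Hdac3 and the core factors, and below Kdm1a, Mpo and Id2, were named after their values were seen.

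Of 12 corepressor partners of GFI1 and GFI1B, 0 passed limma's test (3 lower and 0 higher with p below 0.05 before adjustment), with a median of -0.18. Rcor2, a subunit of the CoREST complex, had the smallest p, with a difference of -0.40 (adjusted p = 0.123), at levels near the median of all probes. Kdm1a, the LSD1 demethylase itself, measured 7.78, 7.62 and 7.64 in YFP-negative and 7.54, 7.20 and 7.46 in YFP-positive replicates 1, 2 and 3. Its difference was -0.28 (95% interval -0.59 to 0.04).

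Of 16 measured targets of RUNX1, 2 rose and 0 fell (2 higher and 1 lower with p below 0.05 before adjustment, limma), with a median of -0.09. Alox12, a platelet lipoxygenase gene that RUNX1 activates, measured 4.38, 4.04 and 4.15 in YFP-negative and 5.90, 6.55 and 7.38 in YFP-positive replicates 1, 2 and 3. It rose 5.35-fold (2.42 ± 0.37, SE, limma adjusted p = 0.0208), a fold whose size is less settled because its YFP-negative levels were low. Myh10, a non-muscle myosin gene that RUNX1 represses in megakaryocytes, rose (adjusted p = 0.0497) from 3.73 to 3.81 in YFP-negative to 4.23 to 4.54 in YFP-positive arrays. The YFP-negative levels cannot be told from background, so the size of the rise is not settled. Of the 6 fits without 1 array, 4 ended the call of Alox12, which held without YFP-positive replicates 1 and 3 (highest adjusted p = 0.0863), and all 6 ended that of Myh10 (0.151). Mpo, the myeloperoxidase gene, measured 8.55, 8.68 and 10.2 in YFP-positive against 10.2, 10.4 and 10.1 in YFP-negative arrays. Without YFP-positive replicate 3, Mpo and Spi1 passed and 2 targets were lower.

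Of 9 measured genes that GFI1 or GFI1B is known to repress, 3 fell and 0 rose (1 higher and 3 lower with p below 0.05 before adjustment, limma), with a median of -0.22. Il7r, a cytokine receptor gene of lymphoid progenitors, fell 5.04-fold (adjusted p = 0.0026), Meis1, a homeobox factor of stem cells, 6.40-fold (adjusted p = 0.00672) and Hoxa9, its partner, 2.91-fold (adjusted p = 0.00734). Il7r in YFP-positive arrays measured 2.90 to 3.09, below the median of all probes, so its fold is not settled. Id2, an inhibitor of E proteins, measured 7.10, 5.23 and 7.37 in YFP-negative and 8.62, 9.59 and 8.70 in YFP-positive arrays and did not pass (adjusted p = 0.0947).

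**Figure D4:**
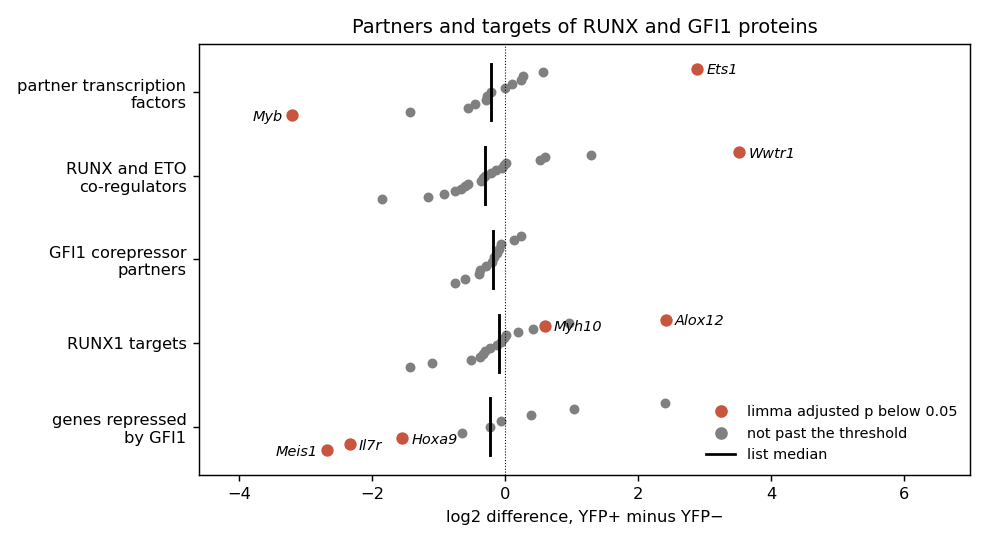
Difference between YFP-positive and YFP-negative LSK cells (horizontal axis, log2 units) for each measured gene of 5 lists around the RUNX and GFI1 proteins, with the genes past limma's threshold in red and named, and a bar at the median of each list. The medians lie between -0.30 and -0.09, and the named genes range from -3.20 for Myb to 3.52 for Wwtr1.

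The profiles most like those of each gene were sought among 6060 genes with a range of at least 1 over the 6 arrays, by the root mean square difference between profiles centred on their means. For Runx1 these were Nme7 (0.08 on the log2 scale), Slc35c1 (0.13), Orc2 (0.14) and Lcmt1 (0.15). For Runx3 they were Cdc45 (0.09), a factor of the replicative helicase, Mynn (0.15), Gprasp2 (0.15) and Hpf1 (0.18). The closest gene lay 0.22 from Cbfb (Srpk1), 0.08 from Cbfa2t2 (Zfp157), 0.11 from Cbfa2t3 (Myof) and 0.20 from Gfi1b (Ifi205). Next came Zfp36l2, Rgs2 and Ada for Cbfb, Nudt7, Ndufaf5 and Wdr12 for Cbfa2t2, Smim8, Coa3 and Npc1 for Cbfa2t3, and Bex2, Rbm12b1 and Sf3b4 for Gfi1b. Runx1t1 and Gfi1 had ranges of 0.39 and 0.45, below the limit of 1, and were left out. Over 6 arrays such likeness includes the spread between replicates, and the arrays of a population share whatever else set them apart.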

How the data were processed

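RNA of sorted LSK cells was amplified and hybridised to 6 arrays, 3 for each population, per the labels' protocols. The authors deposited log2 expression values for 41345 probes, 1 column per array. That the scale is log2 was read from the values, and the submitters' processing notes name Partek. For background correction, normalization and genome build, the sources used here give nothing. No detection calls were used, and the number of arrays limits the precision. Of the probes, 23521 had 1 gene symbol, 1814 several and 16010 were unnamed here. The brightest probe stood for each gene, giving 22180 genes.

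Differences are YFP-positive minus YFP-negative, fitted with limma 3.58.1 in R 4.3.3 (lmFit and eBayes with population in the model, two-sided tests). P-values were adjusted by Benjamini-Hochberg across the whole table, with a threshold of 0.05. The procedure was checked on simulated data, drawn independently for each gene and array. That check holds no signal shared between arrays of the same replicate number and does not test the calls made here. The genes and the 17 lists (5 of pathway genes, 12 of markers) were chosen from general knowledge with earlier results of these data known. Named from each pathway list were up to 3 genes of smallest p past the threshold, or 1 where none passed, and the 4 genes nearest in profile to each member. Genes named outside this rule are listed in the text. Some genes of the pathway lists are not reported here. Alternatives were a replicate block, quantile normalization, the mean of a gene's probes, a filter on dim genes, a trended robust prior, array weights and leaving out each array. Promoter sequences are from RefSeq, GRCm38.p6.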

Additional observations from a re-analysis of the deposited data

How the results depend on the processing

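All 8 genes kept a negative difference under each of the 6 other settings in which they were fitted and in the 6 fits that left out an array. These fits reuse the same arrays, and the share of all genes that kept their sign was not counted. Without YFP-negative replicate 1 the differences of Runx1t1 and Gfi1 were -0.05 and -0.07. The filter on dim genes left out Runx1t1. Of the 8 genes, 1 was lower past the threshold with the replicate block and 1 with the trended robust prior, Runx3 in both (Runx1 adjusted p = 0.086 and 0.0503). Leaving out an array gave 0 to 1. The replicate numbers were not taken to pair the arrays, since the labels name no shared animal. Deviations of same-numbered arrays correlated at 0.10, 0.08 and 0.17, and each YFP-positive array correlated best with its own number. The neutrophil markers were highest in replicate 3 of both populations (medians 2.36 with YFP and 1.81 without, against the YFP-negative mean). Whether same-numbered arrays share a source was not tested, and Runx1 passed without the block but not with it. The replicate block gave 412 higher and 168 lower genes of all tested, and leaving out an array 319 to 668 and 111 to 517. The block gave 2 higher RUNX co-regulators and 0 higher RUNX1 targets. Quantile normalization, the filter on dim genes and the trended prior each gave 1 higher target. Leaving out an array gave 0 to 1 higher and 0 to 2 lower targets, 0 to 2 lower partner factors and 0 to 1 lower co-regulators. No causes were tested. Signal near background limits Runx1t1, and less so Gfi1, Cbfa2t2 and the YFP-positive level of Runx3.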
